A study of Homo sapiens with 6 samples.

Results

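The HOX cluster genes are the 39 genes of the deposited expression table whose symbol is HOXA, HOXB, HOXC or HOXD followed by a number, out of 60831 genes in all. They were followed in PATU8988, a human pancreatic cancer cell line, in 3 libraries from cells made to lose CLIC1 with a short hairpin (CLIC1 knockdown) and 3 libraries from cells with the control hairpin that the labels call shNC (control). CLIC1 encodes a chloride intracellular channel protein. Per the labels' protocols the hairpin was carried by a lentiviral vector with EGFP and a puromycin resistance gene, and cells were selected with 5 µg/mL puromycin for 2 weeks, so both groups are selected stable cells. The labels do not give the subline of PATU8988, the number of hairpins used against CLIC1, or whether the 3 libraries of a group came from separate infections, so p-values measure only the spread between these libraries, which may be technical. The question asked of the HOX genes was which clusters these cells express, and whether HOXA9 differed between the groups in the way its neighbours did. HOXA9 was chosen by its TPM in knockdown against control libraries, the same contrast, so its values are given as a description. Its call in the fit over all genes is not read as a test of it.

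HOX genes encode homeodomain transcription factors that give cells along the head-to-tail axis of the embryo their position. In each cluster the genes lie in a row, and genes nearer one end are used more anteriorly and earlier than genes nearer the other, while genes with the same number in different clusters are paralogues descended from one ancestral gene. HOX proteins bind DNA together with cofactors of the TALE class such as PBX and MEIS proteins, and adult cells tend to keep a HOX pattern that reflects their origin, held by Polycomb and Trithorax group proteins. In the gut, posterior HOX genes are used in the hindgut and anterior ones in the foregut, and cancers often express HOX genes outside their usual domain. HOXA9 is best known from acute myeloid leukaemia, where it acts with MEIS1.

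Levels are in TPM, a transcript abundance that is corrected for gene length and expressed as a share of the library, so levels of different genes can be compared with each other. Each library summed to between 999988 and 999992 TPM, and depth is unknown. CLIC1 itself had 219, 210 and 204 TPM in CLIC1 knockdown libraries, against 313, 311 and 297 TPM in control libraries, which is 68.8% of control on average (log2 fold change −0.54, SE 0.0407, adjusted p = 0.00345 with limma). The knockdown was therefore partial, and the groups did not overlap. The epithelial genes KRT8, KRT18, KRT19 and EPCAM passed as higher in knockdown, 4 of 5 epithelial markers tested, beside 0.962% of all tested genes. Their log2 fold changes were 0.23, 0.23, 0.42 and 0.33 in that order. CDH1, the remaining one, did not pass, with 123 ± 10.9 TPM in knockdown and 136 ± 6.83 TPM in control (SD, n = 3, log2 fold change −0.16). The 5 markers, mostly KRT8 and KRT18, summed to between 11205 and 11681 TPM in knockdown and to between 9433 and 9700 TPM in control libraries. Of the 6 fibroblast markers, summing to 1.58 to 3.37 TPM in knockdown and 2.75 to 4.45 TPM in control, COL1A2, DCN and FAP were listed at 0 throughout. COL1A1 and PDGFRB, with means of 1.62 and 1.28 TPM over the 6 libraries, held nearly all of that sum. The 5 leukocyte markers summed to 0.61 to 1.27 TPM in knockdown and 0.17 to 0.77 TPM in control libraries, with PTPRC and CD3E listed at 0 throughout. Most of it was CD68, with 1.25, 1.09 and 0.44 TPM in knockdown against 0.16, 0.58 and 0.18 TPM in control. The 4 endothelial markers summed to at most 0.03 TPM in knockdown and 0.18 TPM in control, with CDH5 and KDR listed at 0 throughout. The 4 neuronal markers summed to 79.2 to 84.8 TPM in knockdown and 60.3 to 63.3 TPM in control libraries, nearly all of it TUBB3, while ELAVL4 was listed at 0. TUBB3, the 1 neuronal marker tested, passed as higher in knockdown (log2 fold change 0.39, adjusted p = 0.016 with limma). In bulk RNA, fewer cells of a type and less RNA per cell cannot be told apart.

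PATU8988 cells expressed the HOXA and HOXB clusters almost entirely, and HOXC and HOXD weakly. Of the 39 HOX genes, 26 had a mean of at least 1 TPM over the 6 libraries, made up of all 11 HOXA genes, 9 of 10 HOXB genes, 1 of 9 HOXC genes and 5 of 9 HOXD genes. HOXA and HOXB together held 97.3% to 98.0% of the summed HOX TPM of a library. The HOXB cluster, on chromosome 17, gave the largest sum, with 479, 460 and 447 TPM in knockdown libraries, against 476, 464 and 474 TPM in control libraries. The HOXA cluster, on chromosome 7, summed to 176, 185 and 173 TPM in knockdown, against 218, 213 and 211 TPM in control libraries. HOXC, on chromosome 12, reached 6.83, 6.08 and 6.47 TPM in knockdown against 6.65, 5.09 and 5.91 TPM in control, and HOXD, on chromosome 2, reached 9.23, 10.5 and 10.6 TPM in knockdown against 9.32, 8.70 and 9.36 TPM in control. HOXA was the cluster whose sums were furthest apart between the groups as a share of control, and in no library of the knockdown group did it reach the lowest control. That sum includes HOXA9, chosen by this contrast. Without HOXA9 the groups overlapped, at 121.3, 126.6 and 118.8 TPM in knockdown against 133.2, 125.6 and 126.1 TPM in control.

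**Figure D1:**
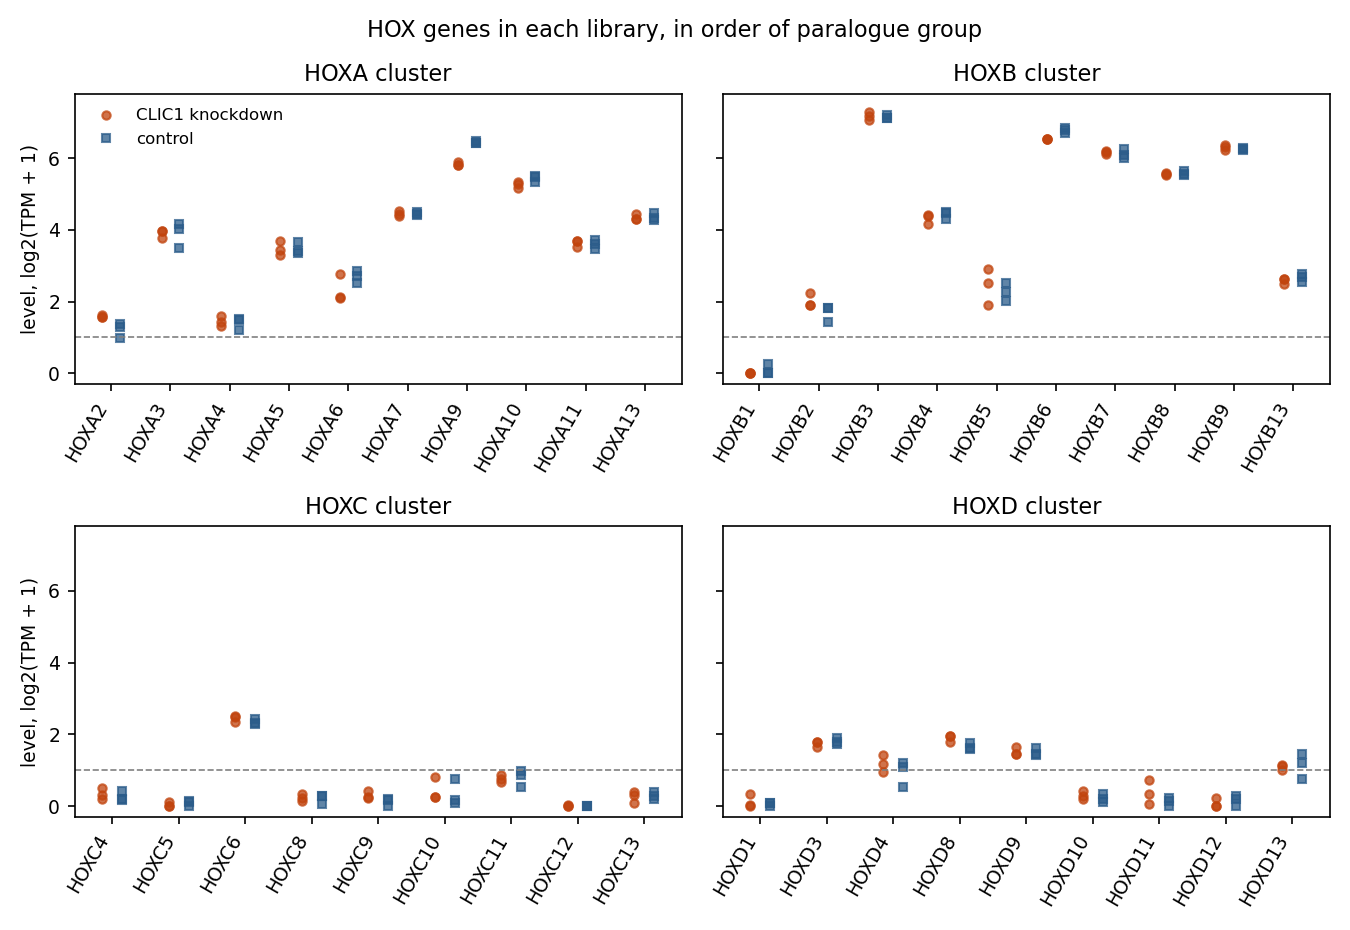
The level of 38 HOX genes in every library as log2(TPM + 1), with CLIC1 knockdown to the left of control within each gene. HOXB3, HOXB6 and HOXB9 sit highest, HOXA9 stands out in HOXA, and all HOXC genes but HOXC6 lie under the dashed line at 1 TPM.

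The HOXB genes covered a wide range. HOXB3 was the highest HOX gene of these cells, with 155, 144 and 132 TPM in knockdown against 138, 137 and 147 TPM in control libraries. HOXB6 followed, then HOXB9 and HOXB7, which could not be ordered because their ranges overlapped, then HOXB8 and HOXB4. HOXB9 had 82.1, 77.9 and 73.3 TPM in knockdown against 73.6, 77.2 and 75.5 TPM in control, and HOXB7 had 70.8, 68.3 and 72.0 TPM in knockdown against 75.8, 62.5 and 66.5 TPM in control libraries. Of the lower HOXB genes, HOXB4, known for its effect on blood stem cells, had 20.4, 19.9 and 17.0 TPM in knockdown against 21.6, 18.8 and 21.3 TPM in control. HOXB13, a gene of the prostate and hindgut, had 5.02 ± 0.318 TPM in knockdown against 5.36 ± 0.442 TPM in control (SD, n = 3), and HOXB5 had 4.64 ± 1.85 against 3.86 ± 0.796 TPM in knockdown and control. The anterior gene HOXB2 was lower still, and HOXB1 was listed at 0 in every library but one control. The upper quartile of the mean TPM over all tested genes was 35.8 TPM, and 7 HOX genes lay above it, HOXB3, HOXB6, HOXB9, HOXA9, HOXB7, HOXB8 and HOXA10.

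In the HOXA cluster HOXA9 was the highest gene, with a mean of 70.8 TPM over the 6 libraries, followed by HOXA10. HOXA7 and HOXA13, the gene known from distal limb and hindgut, could not be ordered, and both lay above HOXA3, HOXA11 and HOXA5, whose ranges overlapped with each other. HOXA13 had 18.8, 20.8 and 18.6 TPM in knockdown against 21.3, 18.5 and 19.2 TPM in control. HOXA3 had 14.0 ± 1.14 TPM in knockdown and 14.1 ± 3.43 TPM in control, HOXA11 had 11.4 ± 0.781 and 11.1 ± 0.981 TPM, and HOXA5 had 10.2 ± 1.61 and 10.2 ± 1.23 TPM in knockdown and control (SD, n = 3). HOXA6 lay next with 5.83, 3.33 and 3.30 TPM in knockdown against 5.49, 4.74 and 6.25 TPM in control, and HOXA4 and HOXA2 were lower still and could not be ordered. HOXA4 had 1.74 ± 0.283 TPM in knockdown and 1.66 ± 0.289 TPM in control (SD, n = 3). Levels were thus highest at the neighbours HOXA9 and HOXA10, moderate at HOXA7, HOXA13, HOXA3, HOXA11 and HOXA5, and low at HOXA2 and HOXA4.

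HOXC6 was the single HOXC gene above 1 TPM and held 59.2% to 76.8% of the HOXC sum, with 4.43 ± 0.339 TPM in knockdown and 4.08 ± 0.236 TPM in control (SD, n = 3). In HOXD, HOXD8 had 2.89, 2.43 and 2.91 TPM in knockdown against 2.40, 2.09 and 2.03 TPM in control, and HOXD3 had 2.35 ± 0.179 TPM in knockdown and 2.52 ± 0.218 TPM in control libraries. HOXD9 had 1.87 ± 0.211 and 1.83 ± 0.208 TPM, HOXD13 1.14 ± 0.102 and 1.23 ± 0.522 TPM, and HOXD4 1.30 ± 0.388 and 0.953 ± 0.444 TPM in knockdown and control. The first genes under the limit of 1 TPM were HOXC11 with 0.707 ± 0.122 and 0.753 ± 0.261 TPM, then HOXC10 with 0.387 ± 0.323 and 0.297 ± 0.350 TPM and HOXC4 with 0.277 ± 0.142 and 0.207 ± 0.116 TPM in knockdown and control. The 13 HOX genes under the limit had no library above 0.96 TPM. None of them was listed at 0 in all 6 libraries.

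**Figure D2:**
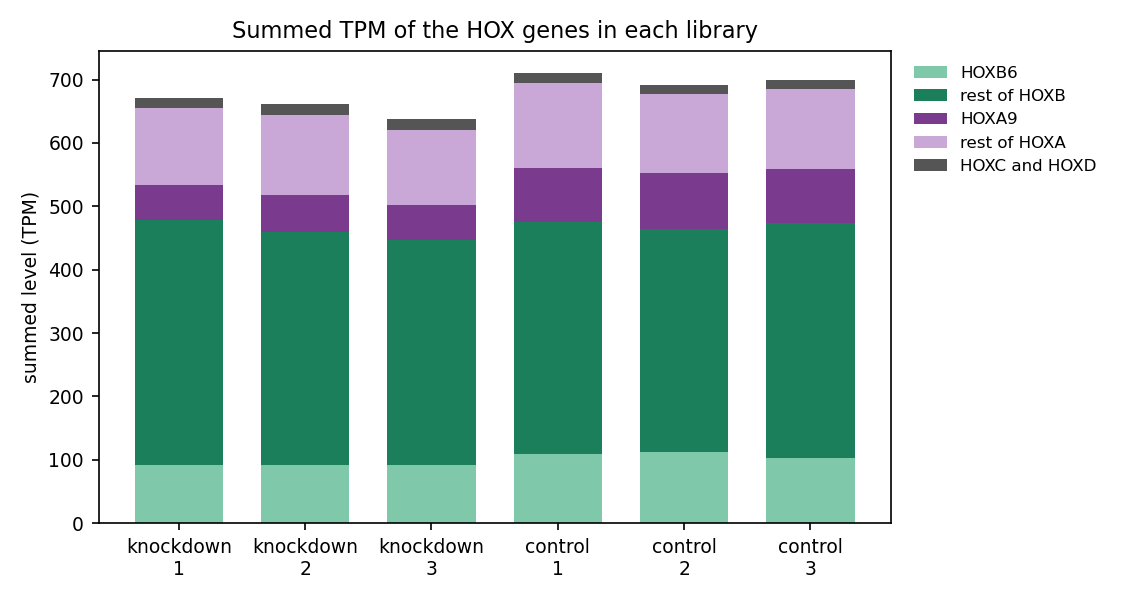
Stacked bars of summed TPM in each library, CLIC1 knockdown on the left, split into HOXB6, the rest of HOXB, HOXA9, the rest of HOXA, and HOXC with HOXD. All HOX genes together summed to 671, 661 and 637 TPM in knockdown against 710, 691 and 700 TPM in control libraries.

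When knockdown was compared with control across the 14135 genes with a mean of at least 1 TPM, by limma with a mean-variance trend on log2(TPM + 1) and Benjamini-Hochberg adjustment, the one HOX gene past the adjusted p threshold of 0.05, of 26 tested, was HOXA9, the gene chosen by this contrast. Over all tested genes, 1.74% passed, 0.962% as higher and 0.778% as lower. That call restates how HOXA9 was chosen, and nothing is read from it or from the share of HOX genes past the threshold.

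The other 25 tested HOX genes had log2 fold changes from −0.36 to 0.37 and adjusted p from 0.0652 to 0.994. The median log2 fold change of the 26 was 0.0078, against −0.0047 over all tested genes, and the median size of change was 0.0761, against 0.107 over all tested genes. Of the 26, 14 had a positive and 12 a negative log2 fold change. Of these 25, HOXB6 and HOXA10 had an unadjusted p under 0.05, beside 15.6% of all tested genes. In 6 HOX genes the values of the groups did not overlap, beside 22.3% of all tested genes. HOXA9, HOXA10 and HOXB6 lay lower in knockdown and HOXA2, HOXB2 and HOXD8 higher. For the 12 HOX genes with a mean of at least 10 TPM that did not pass, the 95% intervals of the log2 fold change lay between −0.386 and 0.411, with half-widths of 0.110 to 0.399.

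**Figure D3:**
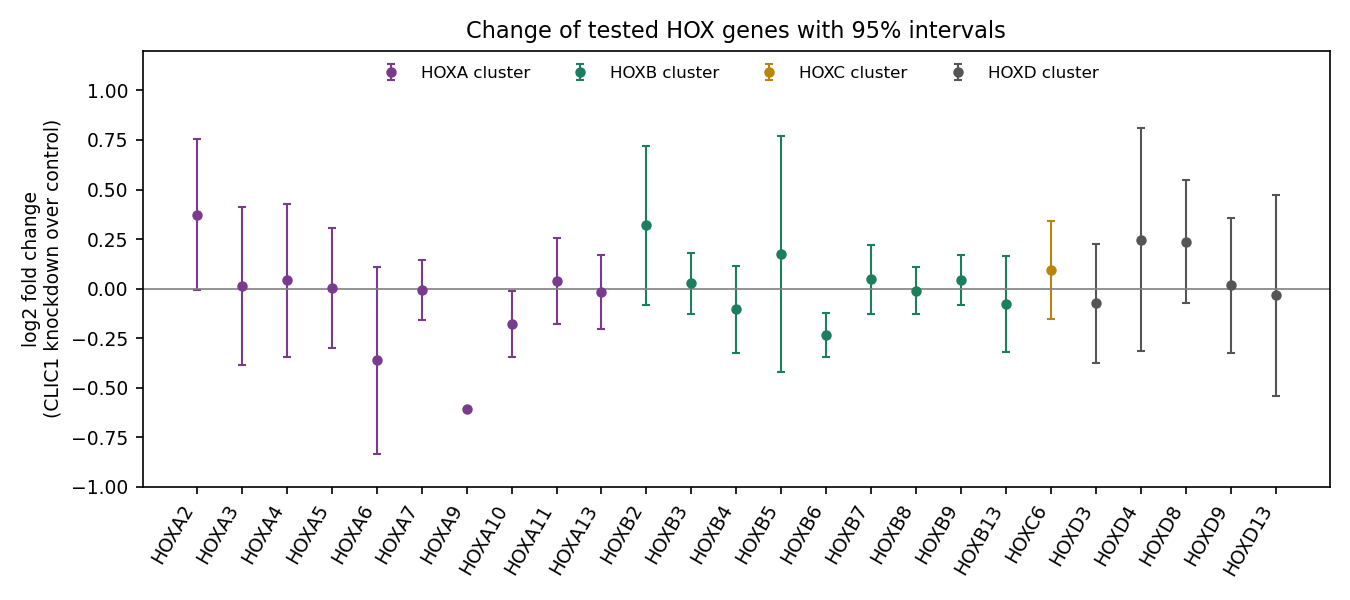
The log2 fold change of 25 tested HOX genes, CLIC1 knockdown over control, with 95% intervals from limma except for HOXA9, which was chosen by this contrast. HOXA9 lies at −0.61 and the others between −0.36 and 0.37.

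HOXA9 had 55.1, 57.9 and 54.6 TPM in knockdown libraries, against 84.9, 87.5 and 84.6 TPM in control libraries. Every knockdown library lay below every control library, and 22.3% of all tested genes had groups that did not overlap, in either direction. HOXA9 was chosen by this contrast, so its gap is a description. The means were 55.9 ± 1.77 TPM in knockdown and 85.7 ± 1.59 TPM in control (SD, n = 3), so the level in knockdown was 65.2% of control, a difference of −0.61 in log2(TPM + 1). HOXA9 lies on the minus strand of chromosome 7 at 27162435 to 27175180 (GRCh38), between HOXA7 at 27153716 to 27157936 and HOXA10 at 27170591 to 27180261.

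The gene on the one side, HOXA7, had 19.7, 21.9 and 20.8 TPM in knockdown against 20.5, 20.9 and 21.4 TPM in control. Its groups overlapped, and the log2 fold change was −0.0092 with a 95% interval of −0.16 to 0.14. HOXA10, the gene on the other side and known for its part in the uterus, had 34.8, 39.1 and 37.9 TPM in knockdown against 44.6, 43.0 and 39.4 TPM in control libraries. All knockdown values lay under the lowest control, by a small margin, and the log2 fold change of −0.18 (SE 0.0705, 95% interval −0.35 to −0.014) did not pass, with an adjusted p of 0.279.

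Within each library, HOXA9 was 2.80, 2.64 and 2.62 times the level of HOXA7 in knockdown, against 4.14, 4.19 and 3.95 times in control libraries. Against HOXA10 the ratio was 1.58, 1.48 and 1.44 in knockdown and 1.90, 2.03 and 2.15 in control. Both ratios were lower in every knockdown library than in any control library, so HOXA9 was lower relative to either neighbour. The ratio of HOXA10 to HOXA7 was 1.77, 1.78 and 1.82 in knockdown against 2.18, 2.06 and 1.84 in control. It too was lower in every knockdown library than in any control library, by a small margin, so separation of a ratio was not particular to HOXA9. As one number, log2 of HOXA9 + 1 over the geometric mean of HOXA7 + 1 and HOXA10 + 1 was 1.04, 0.96 and 0.93 in knockdown against 1.46, 1.51 and 1.51 in control, a difference of −0.51 that stayed between −0.55 and −0.49 under other pseudocounts and with any one library left out. No test is given for it, and its stability is no support for it, because HOXA9 was chosen for its difference in these libraries. As a share of the HOXA sum, HOXA9 was 31.3%, 31.4% and 31.5% in knockdown, against 38.9%, 41.1% and 40.2% in control libraries.

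**Figure D4:**
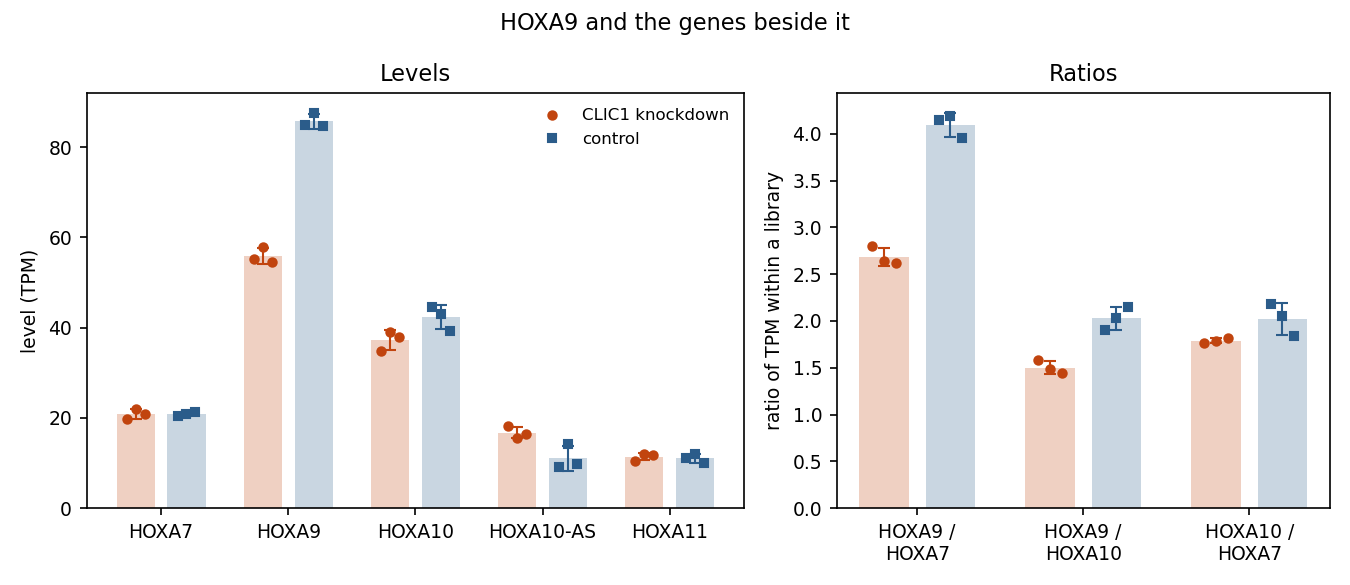
On the left, TPM of HOXA7, HOXA9, HOXA10, the antisense gene HOXA10-AS and HOXA11, and on the right, ratios of TPM within a library, with CLIC1 knockdown left of control. Bars are means, error bars the SD and points the 3 libraries of each group. HOXA9 separates between 54.6 to 57.9 TPM in knockdown and 84.6 to 87.5 TPM in control, HOXA7 overlaps and HOXA10 is close to overlap.

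The HOXA9 difference of −29.8 TPM equalled 83.1% of the net difference in the HOXA sum (178 ± 5.76 TPM in knockdown and 214 ± 3.79 TPM in control, SD, n = 3). It equalled 67.6% of the net difference in the sum of all HOX genes (656 ± 17.3 TPM in knockdown and 700.3 ± 9.31 TPM in control). Other genes differed in both directions, so these are not exclusive shares, and for paralogue group 9 the figure was 109%. Without HOXA9, the HOXA sum was 122 ± 4.01 TPM in knockdown and 128 ± 4.23 TPM in control, which is 95.3% of control. The HOXB sum was 97.9% of control. The cluster sums are descriptions and were not tested. Among paralogues, HOXB9 had a log2 fold change of 0.043 (95% interval −0.084 to 0.17), and the ratio of HOXA9 to HOXB9 was 0.671, 0.743 and 0.745 in knockdown against 1.15, 1.13 and 1.12 in control, while HOXD9 and HOXC9 lay near or under 2 TPM. HOXA9 was thus below HOXB9 in every knockdown library and above it in every control library. Paralogue group 9 as a whole summed to 136 ± 5.19 TPM in knockdown and 163 ± 3.32 TPM in control.

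HOXB6 was the next HOX gene by p. It had 91.8, 92.0 and 91.9 TPM in knockdown against 109, 113 and 103 TPM in control libraries, with no overlap, and 84.9% of control on average. The log2 fold change was −0.23 (SE 0.0470, 95% interval −0.34 to −0.12), and its adjusted p of 0.0652 missed the threshold in the limma fit over all genes. It passed at 0.0488 when only genes with a mean of at least 5 TPM were tested. In every other setting it did not pass, with adjusted p by limma from 0.066 with a pseudocount of 0.1 to 0.213 without control library 2. HOXB6 lies at 48595751 to 48604992 on the minus strand of chromosome 17, and its neighbours did not share the pattern of separation. HOXB7, on one side, had a log2 fold change of 0.047 (95% interval −0.13 to 0.22), and HOXB5, on the other, 0.17 (95% interval −0.42 to 0.77). Paralogue group 6 summed to 100.5 ± 1.03 TPM in knockdown and 118 ± 4.20 TPM in control, because HOXB6 made up most of it.

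The other HOXB genes were close between the groups. HOXB8 had 45.4, 46.8 and 46.3 TPM in knockdown against 45.3, 46.0 and 48.4 TPM in control, a log2 fold change of −0.011 with a 95% interval of −0.13 to 0.11. HOXB3 had a log2 fold change of 0.026 (95% interval −0.13 to 0.18) and HOXB4 of −0.10 (95% interval −0.32 to 0.11). Some weakly expressed HOX genes lay higher in every knockdown library than in any control library without passing. HOXB2 had 3.73, 2.72 and 2.71 TPM in knockdown against 2.54, 1.71 and 2.50 TPM in control, a log2 fold change of 0.32 (95% interval −0.081 to 0.72). HOXA2, which patterns the branchial arches in mice, had 2.09, 1.97 and 1.98 TPM in knockdown against 0.98, 1.46 and 1.58 TPM in control, a log2 fold change of 0.37 (95% interval −0.0056 to 0.75). HOXD8 had a log2 fold change of 0.24 (95% interval −0.071 to 0.55). HOXA6 had the lowest log2 fold change among those that did not pass, −0.36, with a 95% interval of −0.83 to 0.11 and overlapping groups. With 1 library left out, it ran from −0.58 without knockdown library 1, which had 5.83 TPM, to −0.25 without knockdown library 3. HOXA6 did not pass in any of these fits either.

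HOX genes overlap other annotated genes, which limits what a gene level can say. By GENCODE 29, 16 of the 26 tested HOX genes had a span that overlapped another gene on the same strand and 20 a gene on the opposite strand, 23 either, and the sources used here do not give whether counting used strand. HOXA9 shared 15.9% of its exonic bases on its own strand and 13.9% with genes of the opposite strand. HOXA10 shared 9.93% and 16.4%, HOXA7 shared 0% and 62.5%, and HOXB6 shared 16.6% and 16.3% in the same order. HOXD4 and HOXD3 shared 80.5% and 62.2% on their own strand and are the most uncertain. The readthrough gene between HOXA10 and HOXA9, which shares exons with HOXA9, had 0.36, 0.21 and 0.85 TPM in knockdown against 1.00, 0.98 and 0.38 TPM in control, far below HOXA9. HOXA10-AS, an antisense RNA at 27168619 to 27171915 on the plus strand of chromosome 7, which lies across part of HOXA9 and HOXA10, had 18.2, 15.6 and 16.5 TPM in knockdown against 9.05, 14.2 and 9.85 TPM in control. Its groups did not overlap, with higher values in knockdown, the opposite of HOXA9, and its log2 fold change of 0.58 (SE 0.155) did not pass, with an adjusted p of 0.128. Its part in the HOXA9 values was not tested.

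Among the other noncoding genes of the clusters, HOXB-AS3 was the most abundant, with 47.9, 33.4 and 47.4 TPM in knockdown against 44.0, 37.9 and 35.3 TPM in control, and its groups overlapped. HOTTIP, the long noncoding RNA beside HOXA13, had 20.6, 20.1 and 19.6 TPM in knockdown against 18.9, 18.5 and 19.6 TPM in control, and HOTAIRM1, an antisense RNA of the HOXA cluster, had 9.42, 11.8 and 11.7 TPM in knockdown against 12.8, 13.1 and 11.9 TPM in control. The list of 26 such genes found in the table also holds PRAC1 and PRAC2, small protein genes beside HOXB13. Of the 26, 10 were tested, PRAC2 among them, and 0 passed, beside 1.74% of all tested genes, with 1 at an unadjusted p under 0.05 in limma, beside 15.6% of all tested genes. Their median log2 fold change was 0.056. HOXA10-AS was the one with that p.

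A short motif in 3′ UTRs, GTGCTGA, read on the strand of the transcript, came out of an earlier scan of these same libraries and is shown here because HOXA9 carries it. The match within HOXA9 and that within HOXA7 are the 7-base matches in the 39 HOX genes, and both genes were searched over their annotated 3′ UTRs of 1168 and 1193 bases. The 30-base windows below are printed from 5′ to 3′ on the transcript strand, the minus strand of chromosome 7 in GRCh38, with the motif in capitals. The first lies at chr7:27163323-27163352, the second at chr7:27154304-27154333 and the third, which holds just the 6-base core TGCTGA, at chr7:27162639-27162668.
HOXA9: ggggggcattaGTGCTGAtagctgtgtgtg
HOXA7: gccctgagaatGTGCTGAggtccaggatca
HOXA9, 6-base match: gaggaaatgaaTGCTGAttgtaacggagtt

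HOXA9 and HOXA7 both had the 7-base match, and their log2 fold changes were −0.61 and −0.0092 in that order. Among the 11640 tested genes with a searched 3′ UTR, 1719 (14.8%) had it, and among the 1527 of these with a 3′ UTR within 20% of the length of that of HOXA9, 9.69% had it. The median log2 fold change was −0.059 with a match and 0.0029 without, and 2.85% of genes with a match were called lower against 0.484% of those without. Of the genes with a match, 19 (1.11%) had a lower log2 fold change than HOXA9 and 1084 (63.1%) a lower one than HOXA7, so HOXA9 lay near the lower end of this group and HOXA7 in its upper part. The motif came from this contrast, so these shares are descriptions and support nothing on their own. The medians and the shares called lower were not matched for 3′ UTR length, nor were the medians for other sequences below. The part of that length was not tested. A match of the letters is not a bound site.

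**Figure D5:**
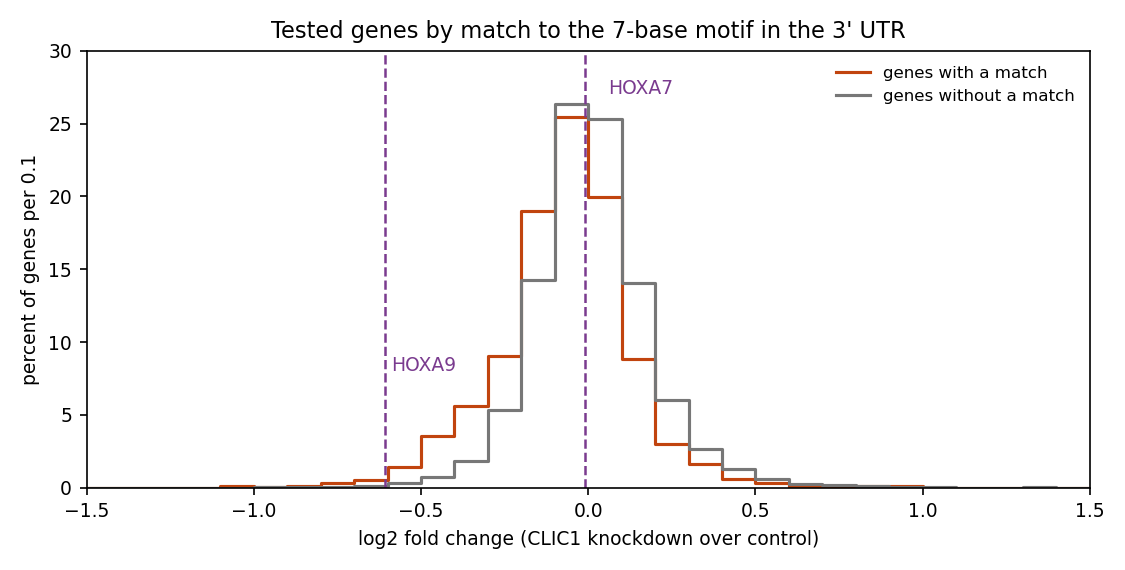
Distribution of the log2 fold change, CLIC1 knockdown over control, among tested genes with and without GTGCTGA in the 3′ UTR, as percent of genes per 0.1. Dashed lines mark HOXA9 at −0.61 and HOXA7 at −0.0092.

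The 6-base core TGCTGA was in 7 HOX genes, of which 6 were tested. These were HOXA3, HOXA4, HOXA7, HOXA9, HOXB13 and HOXD9, with log2 fold changes from −0.61 to 0.042 and a median of 0.0016. HOXA9, chosen by this contrast, was the one of them whose groups did not overlap, beside 22.3% of all tested genes. The core was held by 45.4% of all searched tested genes, whose median log2 fold change was −0.0302, against 0.013 without it. For comparison, the windows of the 4 tested genes with just the core are given, HOXA3 at chr7:27106314-27106343, HOXA4 at chr7:27128881-27128910 and HOXB13 at chr17:48726681-48726710 on the minus strand, and HOXD9 at chr2:176124887-176124916 on the plus strand.
HOXA3: cattagcttccTGCTGAatgtagtatttgg
HOXA4: tggacagcccaTGCTGAgtggggacataca
HOXB13: gccaaggactcTGCTGAgaggcccctagag
HOXD9: ctactaataaaTGCTGAcctgatcaaatgg

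A second sequence ties the clusters to their own microRNAs. The genes of the miR-196 family lie within HOX clusters, and miR-196 is known to act on HOX messages in vertebrates. The mature sequences, from RefSeq on GRCh38.p14, are shown with their seed, bases 2 to 8, in capitals because the HOXA9 3′ UTR holds sites for that seed. The first is encoded within the HOXA9 span at 27169528 to 27169549 on the minus strand of chromosome 7, and the second on chromosomes 12 and 17, and both have the same seed.
hsa-miR-196b-5p: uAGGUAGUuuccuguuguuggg
hsa-miR-196a-5p: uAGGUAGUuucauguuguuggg

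The reverse complement of that seed, ACTACCT in DNA letters, occurred in the 3′ UTR of 9 of 39 HOX genes, of which 7 were tested, against 8.86% of all searched tested genes. HOXA9 had a pair of matches and HOXA7 had 4. In HOXA9 they lay at chr7:27163243-27163272 and chr7:27162681-27162710.
HOXA9, upstream: aaaggaaagaaACTACCTttttataatgca
HOXA9, downstream: tgcagaaggttACTACCTagggtttatgct

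The 7 tested HOX genes with the seed match included HOXA5, HOXA7, HOXA9, HOXB6, HOXB7 and HOXB13, with log2 fold changes from −0.61 to 0.047 and a median of −0.078. Over all searched tested genes the median was −0.0356 with the seed match and −0.00245 without. HOXA9, chosen by this contrast, and HOXB6 were the members whose groups did not overlap, beside 22.3% of all tested genes. HOXA7, with the most matches, had a log2 fold change of −0.0092. The microRNA genes of the clusters were listed at 0 in every library, and these libraries do not measure mature microRNAs.

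Genes for proteins that work with or on HOX genes were read against the shares over all tested genes, of which 1.74% passed and 15.6% had an unadjusted p under 0.05. With so low a share passing, a list of this size without a call says nothing particular about its members. Of the TALE list, which also holds a protein that binds PBX, 9 of 12 genes were tested and 0 passed. The median log2 fold change was −0.12 (all genes −0.0047), and 1 gene, the PBX-binding PBXIP1, had an unadjusted p under 0.05 in limma. PBXIP1, a PBX-interacting protein, had the smallest p, with 11.7 ± 1.05 TPM in knockdown and 14.1 ± 0.899 TPM in control (SD, n = 3), adjusted p = 0.255 by limma. TGIF1 was the most abundant with 253 TPM in knockdown and 261 TPM in control, PBX2 had 20.1 and 18.9 TPM in knockdown and control, and MEIS1, the partner of HOXA9 in leukaemia, was listed at 0 in every library. Of the Polycomb genes, which keep HOX genes silent, all 33 were tested and 0 passed, with 4 at an unadjusted p under 0.05 and a median of −0.063. RBBP7 and RBBP4, subunits of several chromatin complexes, were the most abundant, with 111 and 106 TPM in knockdown against 117 and 109 TPM in control. RYBP, a component of a variant Polycomb complex, had the smallest p, with 5.36 ± 0.207 TPM in knockdown and 7.23 ± 0.391 TPM in control (SD, n = 3), adjusted p = 0.0987 by limma. Of the Trithorax group genes and other HOX activators, all 27 were tested and 0 passed, with 2 at an unadjusted p under 0.05 and a median of −0.042. PSIP1, which tethers MLL complexes to chromatin, had 107 ± 3.92 TPM in knockdown and 124 ± 8.26 TPM in control (SD, n = 3, adjusted p = 0.138 by limma), and DPY30, a shared subunit of MLL complexes, had 87.5 TPM in knockdown and 91.3 TPM in control.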

How the data were processed

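RNA of PATU8988 cells was sequenced in 3 CLIC1 knockdown and 3 control libraries. The authors deposited 1 table of TPM per gene. The submitters' processing notes name fastp, HISAT, RSEM, edgeR and the build GRCh38. Versions, annotation and strand use: not given in the sources used here. TPM keeps no depth, so no count model was fitted and no counting interval is given. Control columns were matched to samples by NC and the replicate number in their names. The knockdown columns carry an S that names no group, so they were matched by elimination and by number, which is an inference. A further 2 columns headed by a single letter were not used, and 1 empty line was left out.

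Values were transformed to log2(TPM + 1), so a pseudocount of 1 understates changes of low genes. The 14135 genes with a mean of at least 1 TPM were compared with limma 3.58.1 under R 4.3.3, fitting a trend of the variance with the mean, two-sided, without covariates, with Benjamini-Hochberg adjustment over all of them at 0.05. The fit was tested on simulated data. The HOX genes and the gene lists, of cofactors, regulators and cell type markers, were chosen with earlier results of these data known. Every HOX gene of at least 1 TPM in either group was named, with the 3 highest below it, except 1 gene that is counted but not reported here. Of each list, up to 4 members past the threshold were to be named, otherwise the smallest p and the 2 highest levels. Coordinates and 3′ UTRs came from GENCODE 29 on GRCh38. Alternatives were other pseudocounts, filters, no trend, a trimmed-mean rescaling, a replicate block and leaving out each library, 13 settings in all.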

Additional observations from a re-analysis of the deposited data

How the results depend on the processing

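Depth is unknown, which limits what can be said of HOX genes near 1 TPM. Of 326 values of single HOX genes under the alternatives, 299 kept direction and side of the threshold. The number of expressed HOX genes was 34, 27 and 14 with limits of 0.1, 0.5 and 5 TPM, against 26. The count of called HOX genes was 2 with a filter of 5 TPM, where HOXB6 was added, and 0 by limma without the trend, where 4 HOX genes had an unadjusted p under 0.05. HOXA9 was chosen by this contrast, so its call under other settings is no support for it. Over all genes, 246 were called, against 61 without a filter and 0 without the trend, where 2040 had an unadjusted p under 0.05. Leaving out 1 library gave 34 to 242 calls, with 137, 37 and 242 without knockdown 1, 2 and 3, and 35, 34 and 36 without control 1, 2 and 3. The causes were not tested.

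With the replicate number as a block, 41 genes were called. The deviations of same-numbered libraries from their group means correlated at 0.0396, −0.046 and −0.0132, and libraries did not all correlate best with their own number. No shared deviation was thus seen. With 3 libraries per group this cannot tell whether the samples were prepared in pairs, and the labels do not say.

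Directions that reversed belonged to 12 genes that did not pass, in 24 values that left out 1 library, whose lowest and highest log2 fold changes were −0.19 and 0.14 for HOXA3, −0.051 and 0.11 for HOXA4, −0.11 and 0.10 for HOXA5, −0.045 and 0.028 for HOXA7, −0.023 and 0.094 for HOXA11, −0.067 and 0.039 for HOXA13, −0.030 and 0.086 for HOXB3, −0.054 and 0.44 for HOXB5, −0.013 and 0.12 for HOXB7, −0.030 and 0.017 for HOXB8, −0.043 and 0.076 for HOXD9, and −0.22 and 0.13 for HOXD13. The trimmed-mean rescaling gave −4.96e-05 for HOXA5.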

Other observations

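Retinoic acid is a known inducer of HOX genes, and of 18 genes of its pathway 9 were tested and 0 passed in limma, beside 1.74% of all tested genes, with 5 at an unadjusted p under 0.05, beside 15.6% of all tested genes. Their median log2 fold change was 0.29, against −0.0047 over all tested genes, and 7 of the 9 were positive. The 5 were CYP26B1, RDH10, CRABP2, DHRS3 and ALDH1A3, with log2 fold changes of 0.44, 0.38, 0.33, 0.33 and 0.29 in that order. They differ in their roles in the pathway, so no direction of its activity is read from them. RDH10, with the smallest p, had 13.7 ± 1.56 TPM in knockdown and 10.3 ± 0.731 TPM in control (SD, n = 3, adjusted p = 0.125 by limma). The receptors RARG and RXRB had the highest levels, 42.7 and 20.7 TPM in knockdown against 41.1 and 21.3 TPM in control.

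CDX2, a caudal-type homeobox factor of the intestine whose mouse relatives act on HOX genes, was at 189 ± 4.53 TPM in knockdown and 212 ± 7.07 TPM in control (SD, n = 3), with a log2 fold change of −0.17 and an adjusted p of 0.0958 by limma. Of 19 caudal and other homeobox genes 8 were tested and 0 passed in limma, with 2 at an unadjusted p under 0.05, beside the same shares. EVX1, beside the HOXA cluster, had 8.16 ± 0.204 TPM in knockdown and 8.90 ± 0.137 TPM in control (SD, n = 3). PDX1, of pancreatic development and named outside the rule after its values were seen, had 8.57 TPM in knockdown and 7.93 TPM in control.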
